A study of Mus musculus with 2 samples.

Results

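The 10 genes examined in mononuclear phagocytes of a mouse melanoma belong to the circadian clock (Arntl, Nr1d1, Nr1d2, Per1, Per2, Cry1, Dbp and Tef) and to the cold response (Cirbp and Rbm3). They are 10 of the 27998 genes listed in the files, found by symbol, and were chosen by name with their levels in these 2 libraries already known, so their lower levels in one library are given as a description and carry no test. The single-cell libraries came from tumor mononuclear phagocytes (TMPs), cells sorted for the surface proteins MerTk and CD64 from B16 tumors, which grow from a melanoma cell line transplanted into C57Bl/6 mice. One library was made from Fcmr+/+ mice and 1 from Fcmr-/- mice, which lack Fcmr, a receptor for IgM, in all cells of the body and not in phagocytes alone. Both groups carried the same tumor line, and tumors of both were diced and digested with enzymes at 37 degrees before the sort. Per the paper, controls in its experiments were littermates matched by sex, age and cage. How many mice each library holds, their age, and the hour at which tumors were taken are not given in the sources used here.

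The mammalian clock is a loop in which BMAL1, the product of Arntl, with its partner CLOCK switches on genes through a short DNA element called the E-box, among them the PER and CRY proteins that shut the pair off. REV-ERB proteins, encoded by Nr1d1 and Nr1d2, repress Arntl through a second element, and DBP and TEF carry the rhythm to output genes. Macrophages keep such a clock, so that levels of these genes depend on the hour of sampling. Cirbp and Rbm3 encode RNA-binding proteins that rise when cells are cooled by a few degrees, follow the daily rhythm of body temperature, and fall when cells are warmed.

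Depth was 128408544 counts of unique molecular identifiers (UMIs) over the 6352 Fcmr+/+ TMPs kept and 124630621 over the 7999 Fcmr-/- TMPs, with medians of 17974 and 12911 UMIs per cell. Levels are UMIs summed over cells and scaled to a total of 1000000 (CPM), and log2 ratios are Fcmr-/- over Fcmr+/+ after adding 1 CPM. With 1 library per genotype no difference has a replicate check, and the 95% intervals (Poisson for CPM, binomial for ratios, Clopper-Pearson for shares of cells) cover counting error only. Macrophage markers were at 16452 and 14552 summed CPM, and the sort genes Mertk (62.8 and 48.7 CPM) and Fcgr1 (250.4 and 394 CPM) were present in both. Fcmr itself had 7 and 6 UMIs, too few to check either genotype. Markers of T and NK cells summed to 0.864 CPM in Fcmr+/+ and 14.5 CPM in Fcmr-/- TMPs, for 6 of 7 markers listed, with Ncr1 at 0 UMIs and 1 UMI; without the cells that held such a UMI, a setting chosen after the data were seen, the same 5 members as below were past the fold. In all, 73 cell barcodes occurred in both libraries.

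To show the elements named above in the genes themselves, windows from 250 bases before to 50 bases after the annotated starts of the members were read from RefSeq on GRCm38.p6, in which 8 of the 10 members had 12 windows. The E-box, searched as CACGTG, occurred in windows of 3 of these 8 members, against 8.09% of the 27025 genes with a window. In Cry1 it lay 60 bases before the start, in Per1 166 before, and in Tef 127 before one start and 138 before the other. The element bound by REV-ERB and ROR proteins, searched as ANTAGGTCA on both strands, was found in 1 of the 12 windows, that of Arntl, 29 bases after the start, against 0.661% of all 32851 windows. The windows of Cry1, Per1, Tef and Arntl are shown because they hold one of these elements, and the window of Cirbp because that gene differed most between the libraries. Capitals mark the match. The heat shock element GAANNTTC (7.86% of all windows) and the D-box TTATGTAA (0.938%), to which DBP and TEF bind, had no match in the 12 windows, the one of Cirbp shown here included.
Cry1, chr10:85185005-85185304, minus strand: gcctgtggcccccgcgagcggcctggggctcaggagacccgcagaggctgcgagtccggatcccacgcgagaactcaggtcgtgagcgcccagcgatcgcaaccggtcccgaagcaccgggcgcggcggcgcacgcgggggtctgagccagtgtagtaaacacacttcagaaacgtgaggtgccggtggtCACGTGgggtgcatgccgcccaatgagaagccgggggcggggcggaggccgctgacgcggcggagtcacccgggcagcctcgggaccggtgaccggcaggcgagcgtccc
Per1, chr11:69098699-69098998, plus strand: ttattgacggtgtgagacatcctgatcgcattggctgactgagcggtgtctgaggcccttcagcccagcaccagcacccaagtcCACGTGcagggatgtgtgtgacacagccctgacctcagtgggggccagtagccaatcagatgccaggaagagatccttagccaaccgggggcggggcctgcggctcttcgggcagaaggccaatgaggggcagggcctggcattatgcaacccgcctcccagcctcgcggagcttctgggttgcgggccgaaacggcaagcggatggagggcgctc
Tef, chr15:81811164-81811463, plus strand: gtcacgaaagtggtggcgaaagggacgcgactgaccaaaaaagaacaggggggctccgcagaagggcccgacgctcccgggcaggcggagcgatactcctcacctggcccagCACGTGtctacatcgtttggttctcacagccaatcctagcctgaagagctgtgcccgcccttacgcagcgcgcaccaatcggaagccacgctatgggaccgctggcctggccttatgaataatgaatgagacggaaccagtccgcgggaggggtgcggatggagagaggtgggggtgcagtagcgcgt
Arntl, chr7:113207261-113207560, plus strand: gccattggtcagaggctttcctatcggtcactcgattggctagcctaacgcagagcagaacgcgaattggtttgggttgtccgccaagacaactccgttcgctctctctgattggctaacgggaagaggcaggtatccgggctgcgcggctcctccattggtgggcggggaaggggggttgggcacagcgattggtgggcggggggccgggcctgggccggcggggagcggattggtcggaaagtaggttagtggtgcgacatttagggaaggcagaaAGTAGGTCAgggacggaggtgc
Cirbp, chr10:80167589-80167888, plus strand: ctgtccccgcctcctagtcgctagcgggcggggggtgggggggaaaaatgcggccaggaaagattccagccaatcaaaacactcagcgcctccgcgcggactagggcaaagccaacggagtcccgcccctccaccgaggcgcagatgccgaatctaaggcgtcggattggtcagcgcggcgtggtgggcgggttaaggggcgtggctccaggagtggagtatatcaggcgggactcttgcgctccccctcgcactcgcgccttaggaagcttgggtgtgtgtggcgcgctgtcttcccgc
A match describes these letters and does not show that a protein bound there.

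All 10 members had lower CPM in Fcmr-/- than in Fcmr+/+ TMPs, and the interval of the log2 ratio was below 0 for each. The share of all genes for which this holds was not counted. At this depth intervals also lay below 0 for small shifts, as for Dusp1 (-0.03, interval -0.04 to -0.02), so this does not set the members apart. With the exception of Per2, the members reached 5 CPM in either library. Nr1d1 and Arntl did so in Fcmr+/+ TMPs alone, and passing in that way favors a lower ratio. Of the 9 members at that level, 5 (Nr1d1, Cry1, Tef, Cirbp and Rbm3) had a log2 ratio of -0.5 or less, against 2.64% of the 8701 genes that reached it. No member had a ratio of 0.5 or more, where 3.16% of genes did. The members were chosen on this contrast, so their counts at or past a ratio of 0.5 are set beside the background without reading anything from them. Over all 8701 genes the median log2 ratio was 0.00.

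**Figure D1:**
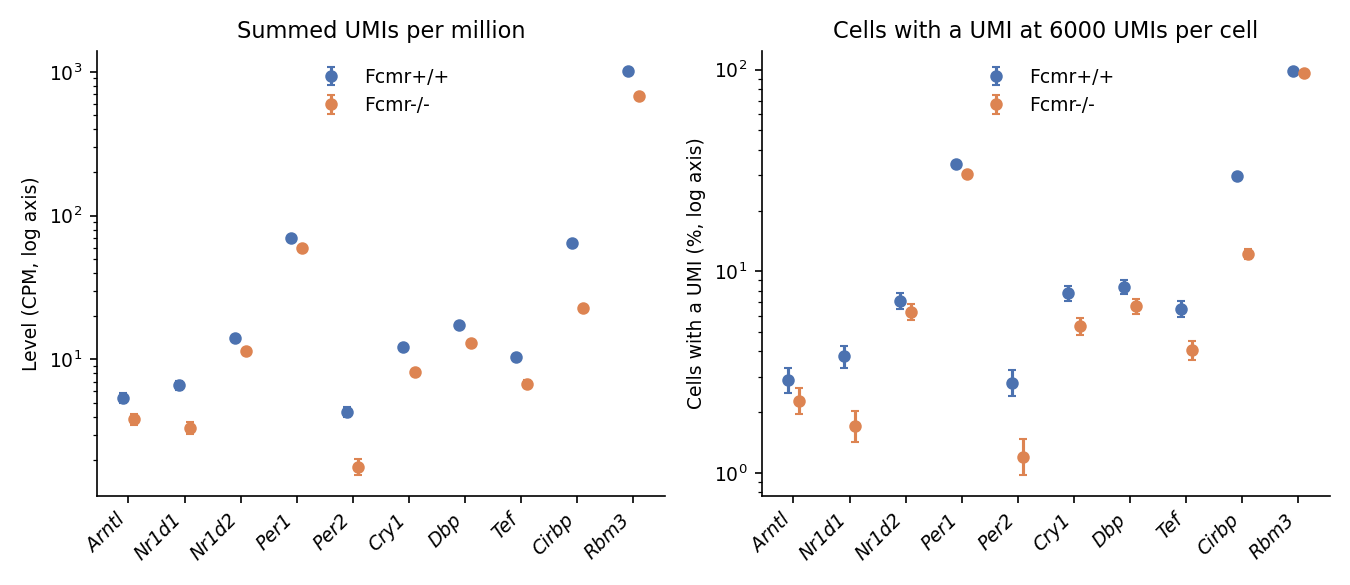
Level of each member in CPM (left, log axis) and share of cells with a UMI after cells were drawn down to 6000 UMIs, shallower cells left out (right, log axis), with points for the Fcmr+/+ and Fcmr-/- libraries and bars for exact 95% intervals of counting error. Each Fcmr-/- point lies below its Fcmr+/+ point, and the pair is farthest apart for Cirbp, at 65.0 and 22.8 CPM.

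Arntl, whose product BMAL1 drives the loop (ENSMUSG00000055116, chromosome 7, 113207465 to 113314126, plus strand), had 5.41 CPM (interval 5.02 to 5.83) in Fcmr+/+ and 3.83 CPM (interval 3.49 to 4.19) in Fcmr-/- TMPs. The log2 ratio was -0.41 (interval -0.55 to -0.27). A UMI was seen in 9.57% and 5.56% of cells, and in 2.88% and 2.28% at 6000 UMIs per cell, where the intervals of the libraries overlapped (2.48 to 3.32% and 1.95 to 2.64%). The share of cells thus differed less at equal depth.

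Of the REV-ERB genes, Nr1d1 (ENSMUSG00000020889, chromosome 11, 98767932 to 98775333, minus strand) had 849 UMIs, or 6.61 CPM (interval 6.17 to 7.07), in Fcmr+/+ and 419 UMIs, or 3.36 CPM (interval 3.05 to 3.7), in Fcmr-/- TMPs. Its log2 ratio of -0.80 (interval -0.94 to -0.67) was the 52nd lowest of 8701 genes. At equal depth a UMI was found in 3.78% of Fcmr+/+ and 1.71% of Fcmr-/- TMPs, and as deposited in 670 and 355 cells. Nr1d1 overlaps Thra, a thyroid hormone receptor gene on the opposite strand, by 1075 bases, and Thra had 17.4 and 15.1 CPM, a log2 ratio of -0.19, and the sources used here do not say whether counting used strand. The paralog Nr1d2 (ENSMUSG00000021775, chromosome 14, 18204054 to 18239127, minus strand) had 14.1 CPM (interval 13.5 to 14.8) and 11.4 CPM (interval 10.8 to 12.0). At -0.29 (interval -0.39 to -0.20) its log2 ratio was nearer to 0 than that of Nr1d1, and the intervals of both ratios did not overlap. The share of cells with an Nr1d2 UMI at equal depth was 7.10% (interval 6.48 to 7.76%) and 6.29% (interval 5.75 to 6.86%), which overlap.

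The period and cryptochrome genes encode the proteins that close the loop. Per1 (ENSMUSG00000020893, chromosome 11, 69095217 to 69109960, plus strand), which also responds at once to glucocorticoids and to other acute stimuli, had 69.6 CPM (interval 68.2 to 71.1) in Fcmr+/+ and 59.7 CPM (interval 58.4 to 61.1) in Fcmr-/- TMPs, with a log2 ratio of -0.22 (interval -0.26 to -0.17). Its ratio was the nearest to 0 of the 10. Per2 (ENSMUSG00000055866, chromosome 1, 91415982 to 91459324, minus strand) had 555 UMIs, or 4.32 CPM (interval 3.97 to 4.70), and 223 UMIs, or 1.79 CPM (interval 1.56 to 2.04). With a log2 ratio of -0.93 (interval -1.09 to -0.77), Per2 was second among the members after Cirbp in distance from 0, but fell short of the 5 CPM asked of a gene to be counted. Cry1 (ENSMUSG00000020038, chromosome 10, 85131700 to 85185064, minus strand) had 12.2 CPM (interval 11.6 to 12.8) and 8.14 CPM (interval 7.64 to 8.65), a log2 ratio of -0.53 (interval -0.64 to -0.43). At equal depth the share of cells was 34.1% and 30.3% for Per1, 2.80% and 1.2% for Per2, and 7.81% and 5.35% for Cry1, against 65.8% and 53.8%, 7.68% and 2.61%, and 20.4% and 11.5% as deposited.

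Dbp and Tef encode transcription factors of the PAR bZIP family, which follow the clock closely in most tissues. Dbp (ENSMUSG00000059824, chromosome 7, 45705088 to 45710203, plus strand) had 17.4 CPM (interval 16.7 to 18.2) and 13.0 CPM (interval 12.4 to 13.7), with a log2 ratio of -0.39 (interval -0.48 to -0.31) and a UMI in 8.39% and 6.70% of cells at equal depth. Sphk2 overlaps Dbp on the other strand by 737 bases and had 24.5 and 23.5 CPM. Tef (ENSMUSG00000022389, chromosome 15, 81802421 to 81826863, plus strand) had 10.4 CPM (interval 9.84 to 11.0) and 6.77 CPM (interval 6.32 to 7.24). Its log2 ratio of -0.55 (interval -0.66 to -0.44) went with a UMI in 6.52% and 4.05% of cells at equal depth. For both genes the intervals of the libraries were apart in CPM.

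Cirbp, the cold-inducible RNA-binding protein (ENSMUSG00000045193, chromosome 10, 80165985 to 80172786, plus strand), was furthest apart between the libraries. It had 8342 UMIs, or 65.0 CPM (interval 63.6 to 66.4), in Fcmr+/+ and 2847 UMIs, or 22.8 CPM (interval 22.0 to 23.7), in Fcmr-/- TMPs. The log2 ratio was -1.47 (interval -1.53 to -1.41), the 6th lowest of 8701 genes. With 1 CPM added to each level, this equals a level 2.77-fold higher in Fcmr+/+ cells. A UMI was present in 54.7% (interval 53.5 to 55.9%) and 26.6% (interval 25.7 to 27.6%) of their cells, and at equal depth in 29.6% (interval 28.5 to 30.7%) and 12.2% (interval 11.5 to 13.0%). Fewer Fcmr-/- cells held the transcript also when every cell was read to the same depth. No cell type in the sort is known to lack these genes, so the part of such shares that free RNA in the droplets gives was not measured. Rbm3 (ENSMUSG00000031167, X chromosome, 8138975 to 8145880, minus strand) had 129486 UMIs, or 1008 CPM (interval 1003 to 1014), and 84702 UMIs, or 680 CPM (interval 675 to 684). Its log2 ratio was -0.57 (interval -0.58 to -0.56), rank 163. Almost every cell of both libraries held Rbm3, 98.2% and 95.9% at equal depth, so that its difference lay in the amount per cell and hardly in the share of cells. Xist, counted as a marker of sex and not as a control for Rbm3, had 923 and 926 CPM.

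A difference in the hour of sampling or in handling might reach every cell alike, so each member was compared within each state of the TMPs. Cells of both libraries were clustered together into 11 clusters, numbered by size, and 10 of them held at least 50 cells of each library. The study drew fewer clusters from these cells, and the cluster numbers here are not those of the study. The cluster left out, cluster 9 (Iigp1, Serpina3g, Cxcl9), held 47 Fcmr+/+ and 932 Fcmr-/- cells. Cluster 3 (Ly6c2, Ly6a, Il18bp) was almost as one-sided, with 65 and 1484 cells, so its Fcmr+/+ levels rest on few UMIs. The other clusters compared were led by Ccl17 and Il1r2 (cluster 1), Tfrc and Cnrip1 (2), Ppbp and Spp1 (4), the mitotic genes Cenpf and Nusap1 (5), Cxcl3 and Mfge8 (6), the interferon genes Rsad2 and Cmpk2 (7), Hbb-bs and Hba-a1 with Hspb1 (8), Acp5 and Apoe (10) and Adm and Pdgfa (11). Clusters share their library, so they are not replicates of a genotype.

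Of the 9 members with 5 CPM, 3 (Cry1, Cirbp and Rbm3) were lower in Fcmr-/- cells in every one of the 10 clusters, against 4.38% of all genes. Per2, below that level, was lower in all 10 too. No member was higher in every cluster, where 7.6% of genes were. The members were chosen on this contrast, which favors a lower level in each cluster, so nothing is read from these counts. The members that were not lower throughout were Nr1d1, Per1 and Tef, lower in 8 of 10 clusters each, Nr1d2 and Dbp in 6 each, and Arntl in 5. Leaving out clusters with fewer than 200 cells of either library, a setting chosen after the data were seen, left 8 clusters and the same 3 members, where 6.68% of all genes were lower throughout. Which members these were depended on the clusters: at a resolution of 0.4, Nr1d1, Arntl and Tef were lower in all 7 clusters too (9.36% of genes), while with 20 principal components Cirbp alone was (3.18%).

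**Figure D2:**
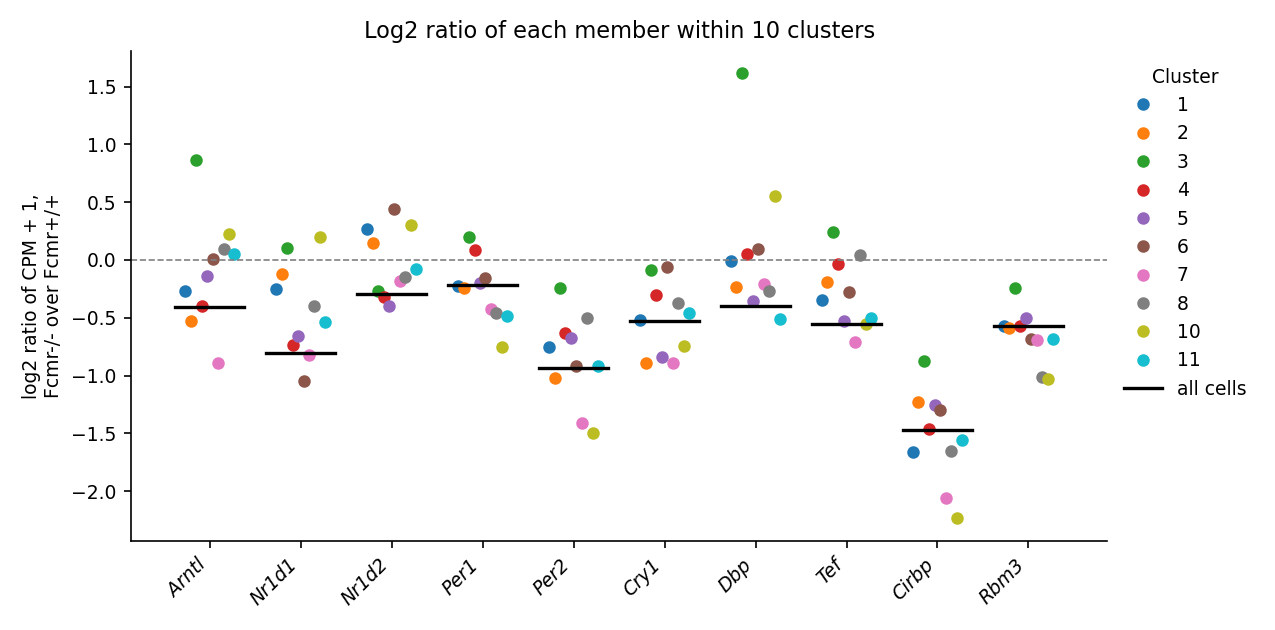
Log2 ratio of CPM + 1, Fcmr-/- over Fcmr+/+, of each member within the 10 clusters compared (colored points) and over all cells (black line), with the dashed line at equal levels. All points of Per2, Cry1, Cirbp and Rbm3 lie below 0, and the points above 0 of Arntl, Nr1d1, Per1, Dbp and Tef include cluster 3, which holds 65 Fcmr+/+ cells.

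For Cirbp the direction was the same in every cluster but the size was not. Fcmr+/+ levels ran from 39.4 CPM in cluster 3 and 42.5 CPM in cluster 6 to 95.3 CPM in the interferon cluster 7 and 135 CPM in cluster 10. Fcmr-/- levels stayed between 15.1 CPM in cluster 11 and 29.0 CPM in the mitotic cluster 5. The lowest Fcmr+/+ level of a cluster was thus above the highest Fcmr-/- level, with intervals that overlapped (28.9 to 52.6 and 26.5 to 31.5 CPM). The clusters differed far more in the Fcmr+/+ library. Accordingly, log2 ratios ran from -0.87 (interval -1.30 to -0.42) in cluster 3 to -2.06 (interval -2.32 to -1.81) in cluster 7 and -2.24 (interval -2.53 to -1.96) in cluster 10, and every interval was below 0. Their SD over clusters was 0.40, where counting error gave 0.15 and the median gene with at least 20 CPM had 0.17. Cirbp was the only member among the 1339 genes used for clustering and was itself a leading gene of cluster 10, so its high level there is part of how that cluster was made. With the clock and cold genes left out of the clustering, Cirbp was again lower in 10 of 10 clusters, at -2.27 to -1.23.

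Rbm3 showed a like pattern over a narrower range. Its Fcmr+/+ levels ran from 859 CPM (interval 807 to 914) in cluster 3 to 1249 CPM in cluster 10. Its Fcmr-/- levels ran from 549 CPM in cluster 6 to 807 CPM (interval 794 to 820) in cluster 5. The ranges were again apart, but these intervals overlapped. In cluster 9, left out for its few Fcmr+/+ cells, those cells had 800 CPM of Rbm3. The log2 ratios there were -0.15 for Rbm3 and -0.57 for Cirbp. Among the 10 clusters compared, Rbm3 ratios were nearest to 0 in cluster 3, at -0.24 (interval -0.34 to -0.15). They were farthest in cluster 8, at -1.02 (interval -1.08 to -0.95), and cluster 10, at -1.03 (interval -1.09 to -0.96). The mitotic cluster 5 had -0.50 (interval -0.53 to -0.47). Here the SD of 0.23 stood against 0.03 from counting, and against a median of 0.13 for genes with at least 100 CPM. Both cold-inducible genes were hence lower in each of the 10 clusters compared, by amounts that differed beyond counting error. Cluster 10 had the lowest ratio of both. Median UMIs per cell in Fcmr+/+ and Fcmr-/- cells were 12557 and 9612.5 in cluster 10 and 28322 and 23990 in cluster 5. Cluster 3, with the ratios nearest to 0 of these 10, had 13027 and 14027.5. The amounts were not separated from depth. With 20 principal components Cirbp ratios reached -0.20, and Rbm3 was lower in 9 of 10 clusters, with a highest ratio of 0.03.

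**Figure D3:**
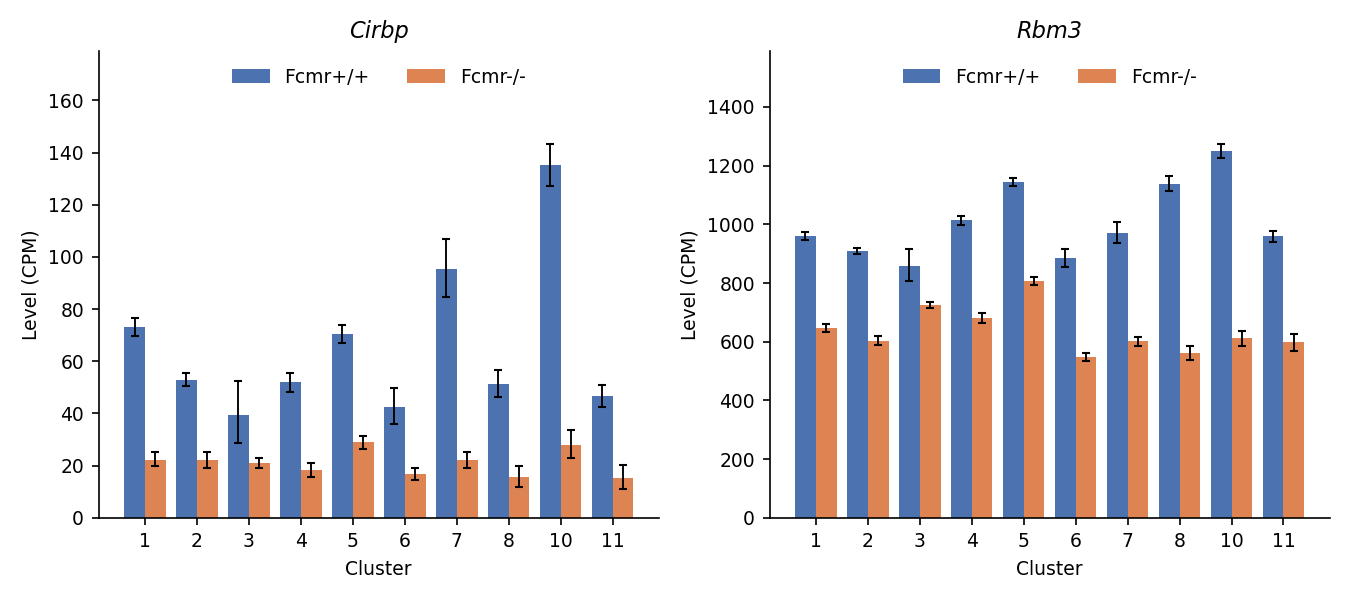
Level of Cirbp (left) and Rbm3 (right) in CPM within each of the 10 clusters compared, with bars for the Fcmr+/+ and Fcmr-/- libraries and error bars for exact 95% Poisson intervals. For both genes the lowest Fcmr+/+ bar is above the highest Fcmr-/- bar, 39.4 against 29.0 CPM for Cirbp and 859 against 807 CPM for Rbm3. The intervals of these bars overlap.

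Per2 and Cry1 were the clock genes with the same direction in all 10 of these clusters. That did not hold under several other settings. Per2 had a cluster above 0 with 20 principal components (highest ratio 0.63), with CPM averaged over cells (0.12), at a resolution of 0.4 (0.05), after thinning (0.94) and without interferon genes in the clustering (0.00). Cry1 had one or more with 20 components (0.14), with CPM averaged over cells (0.03), at a resolution of 1.2 (0.09), without the clock and cold genes (0.24) and without interferon genes (0.01). In the 10 clusters compared above, Per2 had its highest log2 ratio, -0.24 (interval -1.68 to 0.97), in cluster 3, where the Fcmr+/+ cells held 2 UMIs. Its lowest, -1.50 (interval -2.20 to -0.51), was in cluster 10, where 34 UMIs stood against 3. Of the 10 Per2 intervals, 8 were below 0. Its SD of 0.39 was close to the 0.37 that counting error gave, so that no difference in size between clusters was detectable at this depth. For Cry1 the ratios ran from -0.06 (interval -0.47 to 0.36) in cluster 6 to -0.89 (interval -1.30 to -0.50) in cluster 2, and 5 of 10 intervals were below 0, with an SD of 0.32 against 0.24 from counting. Levels of Cry1 were highest in the interferon cluster 7 in Fcmr+/+ cells, at 22.7 CPM, where Fcmr-/- cells had 11.8 CPM.

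The other clock genes were mixed. Per1 was lower with an interval below 0 in 7 clusters, most of all in cluster 10 (95.9 and 56.6 CPM, log2 ratio -0.75, interval -0.97 to -0.54), while cluster 4 had 53.1 and 56.5 CPM (log2 ratio 0.09, interval -0.07 to 0.24). Its SD of 0.28 exceeded the 0.10 from counting. Nr1d1 was highest in cluster 11 in both libraries, at 13.0 and 8.63 CPM, and its ratios ran from -1.05 (interval -1.80 to -0.18) in cluster 6 to 0.20 (interval -0.47 to 0.85) in cluster 10. Nr1d1 and Nr1d2 followed each other over clusters, with Pearson's r of 0.86 over 10 Fcmr+/+ and 0.85 over 11 Fcmr-/- clusters, a description over clusters that share a library. Nr1d2 was above its Fcmr+/+ level in cluster 6 (6.81 and 9.62 CPM, log2 ratio 0.44, interval -0.13 to 1.03) and had an interval below 0 in cluster 5 alone (-0.40, interval -0.63 to -0.16). Arntl was about equally often higher and lower, with intervals below 0 in clusters 2 and 7 (-0.53 and -0.89). Its highest ratio, 0.86 (interval -0.81 to 1.74) in cluster 3, rests on 1 UMI in the Fcmr+/+ cells.

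Dbp was the one member with an interval above 0 in any cluster. In cluster 10 it had 12.8 CPM in the Fcmr+/+ and 19.2 CPM in the Fcmr-/- library, with a log2 ratio of 0.55 (interval 0.13 to 0.97), in the same cells in which Cirbp, Rbm3, Per1 and Per2 had their lowest ratios. In cluster 3 the ratio of 1.62 (interval 0.35 to 2.85) came from 3 UMIs in the Fcmr+/+ cells against 239. Dbp was lower in clusters 2 (28.8 and 24.4 CPM), 5 (19.5 and 15.1 CPM) and 11 (24.0 and 16.6 CPM), with intervals below 0. Tef had intervals below 0 in clusters 1, 5, 7 and 10, from -0.35 to -0.71, and its ratios elsewhere ran from -0.50 to 0.24 with intervals that held 0.

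The libraries differed in the shares of the clusters, and when the CPM of each cluster was averaged with the same cluster shares in both libraries, the log2 ratio was -0.35 for Nr1d1, -0.29 for Tef, -0.19 for Arntl, -0.03 for Dbp and -0.01 for Nr1d2. For Cirbp it was -1.54, for Rbm3 -0.62, for Per2 -0.85, for Cry1 -0.495 and for Per1 -0.24, near the values over all cells. Under these shares 2 of the members with 5 CPM, Cirbp and Rbm3, were at -0.5 or less, against 1.34% of all genes. Clusters were also remade after each gene was centred and scaled within its library, a setting that lets cells of both libraries mix more. Under equal shares these gave -0.77 for Nr1d1, -0.46 for Tef, -0.35 for Arntl, -0.31 for Dbp and -0.22 for Nr1d2. The size for these genes thus depended on how states were drawn, whereas Cirbp (-1.55) and Rbm3 (-0.60) kept theirs.

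The libraries differed in UMIs per cell, so members were also compared among cells of like depth, in 4 bins of equal size cut over both libraries. Cirbp had log2 ratios of -2.08, -1.78, -1.52 and -1.22 from the bin with the fewest UMIs to that with the most. In Fcmr+/+ cells its level ran from 99.4 CPM in the shallowest to 58.8 CPM in the deepest bin, while Fcmr-/- cells held 22.7 and 24.7 CPM. Rbm3 ratios were -0.76, -0.68, -0.54 and -0.49 and those of Per2 -1.01, -1.02, -1.0 and -0.97. Both cold-inducible genes thus differed more among shallow cells, whereas the ratio of Per2 was alike at each depth. Dbp went the other way, with 0.07, -0.04, -0.31 and -0.44, so that its lower level was seen in the deeper bins.

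**Figure D4:**
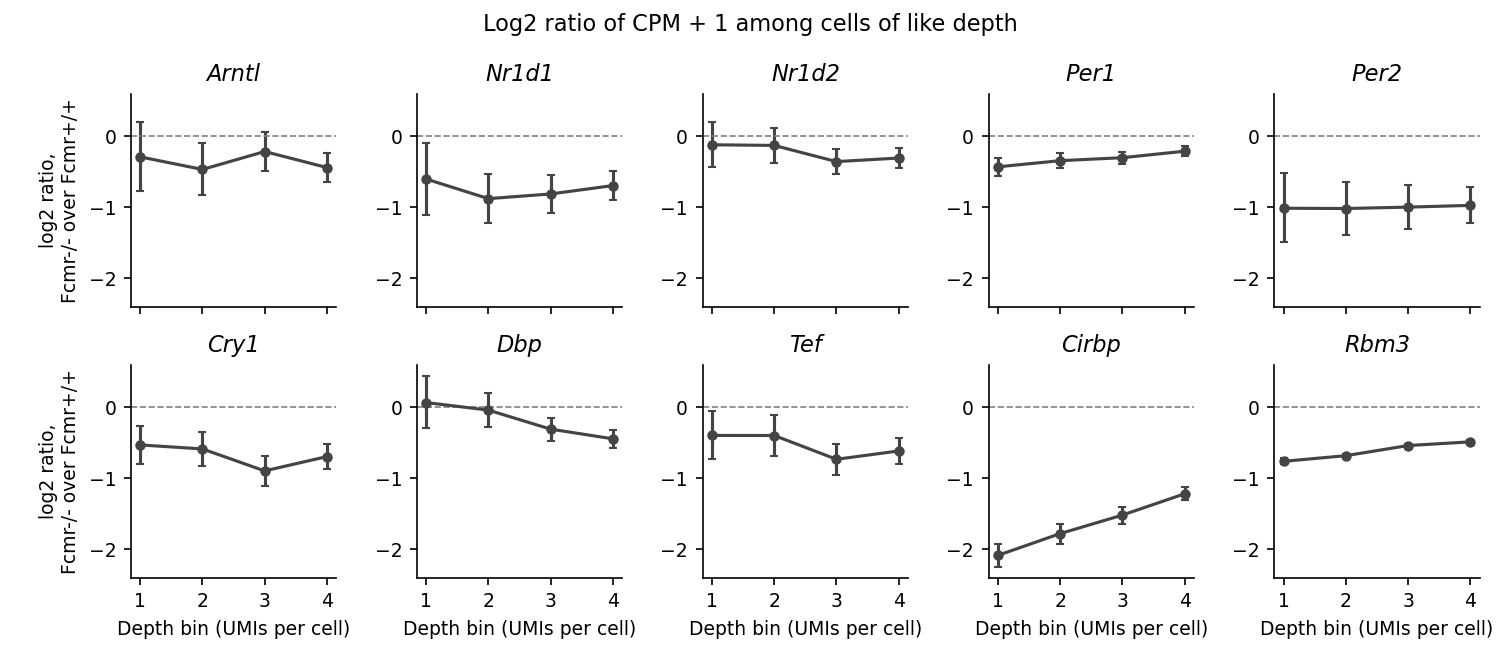
Log2 ratio of CPM + 1, Fcmr-/- over Fcmr+/+, of each member among cells in the same of 4 bins of UMIs per cell (1 fewest, 4 most), with exact 95% intervals of counting error. Cirbp goes from -2.08 to -1.22 and Rbm3 from -0.76 to -0.49 toward deeper cells, while Dbp goes from 0.07 to -0.44.

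Interferon genes were the list that differed most in the other direction (21 of 25 genes at 0.5 or more, median log2 ratio 0.99), and members were therefore compared within 3 bins of cells by their share of interferon UMIs. Cirbp had -1.82, -1.28 and -1.39 from the lowest to the highest bin and Rbm3 -0.80, -0.42 and -0.45. Nr1d1 had -0.69, -0.77 and -0.91 and Per2 -0.75, -0.86 and -1.15. The differences of these 4 genes were hence present among cells with few interferon UMIs as well as among those with many. Cells with at least 3 UMIs of a list of G2 and mitosis genes had a Cirbp ratio of -1.22 and other cells -1.63. The former were deeper, with median UMIs of 26917 in Fcmr+/+ and 22832 in Fcmr-/- cells, against 14381.5 and 11215 in other cells. Division was thus not separated from depth here. Over 3 bins by immediate early genes, which a tissue digest at 37 degrees can switch on, Cirbp had -1.48, -1.46 and -1.51. Per1, itself induced by acute stimuli, rose over these bins in both libraries. It was at 53.4, 66.8 and 86.8 CPM in Fcmr+/+ and at 47.6, 63.4 and 73.1 CPM in Fcmr-/- cells. Median UMIs per cell fell over the same bins, from 20490 to 15377 in Fcmr+/+ and from 14225 to 10457 in Fcmr-/- cells. Per1 was also higher in the shallowest than in the deepest depth bin, at 99.8 and 63.2 CPM in Fcmr+/+ and 73.7 and 54.4 CPM in Fcmr-/- cells. Its rise was thus not separated from depth.

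Lists of related genes place the members among their partners, again counting genes with at least 5 CPM at or past a log2 ratio of 0.5, with 2.64% of all genes lower and 3.16% higher. Among 7 clock repressors, 3 were lower (Nr1d1, Cry1 and Ciart, which had 5.73 and 3.20 CPM, log2 ratio -0.68) and none higher, with a median of -0.44. Nr1d1 and Ciart reached 5 CPM in the Fcmr+/+ library alone, so the filter itself favored a lower ratio for them. Bhlhe40, which competes with CLOCK for E-boxes, had 124 and 91.1 CPM (-0.44), and Bhlhe41 45.6 and 37.7 CPM (-0.27). Below the level asked for, Per3 had -0.55 and Cry2 -0.43. Of 3 clock activators none passed in either direction: besides Arntl, Rora had 12.6 and 8.91 CPM (-0.46) and Clock 28.7 and 27.7 CPM (-0.05). Nfil3, which opposes DBP and TEF at the D-box, had 109 and 121 CPM (0.15), so that of the 3 genes in the PAR bZIP list Tef alone passed, with a median of -0.39. Of 11 genes that modify clock proteins 0 passed, the median was -0.05, and the lowest were Sirt1 (-0.45), the casein kinase gene Csnk1e (-0.44) and Usp2 (-0.39).

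Genes that the clock drives or represses did not go one way. Of 5 clock output genes, 2 were lower, Klf9 (42.6 and 13.8 CPM, log2 ratio -1.56) and Tsc22d3 (234 and 161 CPM, -0.54), and Nampt was higher (130 and 187 CPM, 0.52), with a median of -0.39. Of 7 genes known to be repressed by REV-ERB proteins, 2 were lower (Cry1 and Il6, -0.53) and Ccl2 was higher (2014 and 3020 CPM, 0.58), with a median of -0.05. Cx3cr1 had 23.7 and 33.2 CPM (0.47), and Arntl, the textbook target of Nr1d1, was lower as Nr1d1 was.

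**Figure D5:**
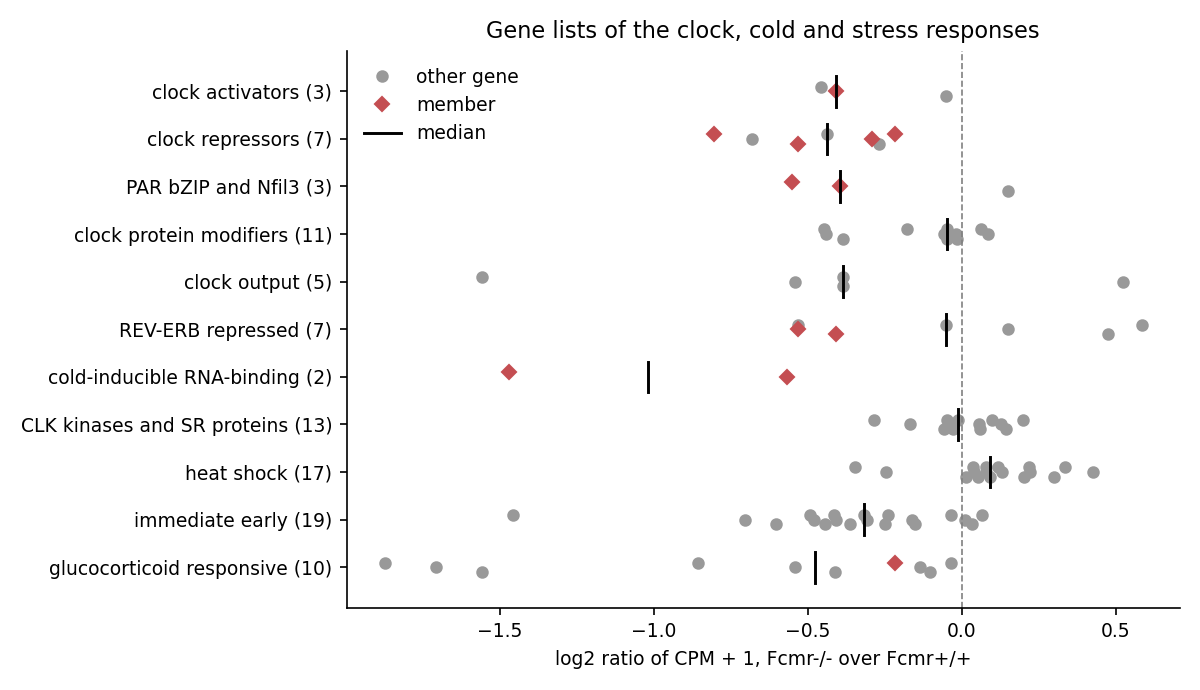
Log2 ratio of CPM + 1, Fcmr-/- over Fcmr+/+, of the genes with at least 5 CPM (their number in parentheses) in 11 lists, with diamonds for members, circles for other genes and a black line at each list's median. Members lie below 0 in every list that holds one, medians of the heat shock and splicing lists lie at 0.09 and -0.01, and Mt2, Fkbp5 and Klf9 of the glucocorticoid list lie at -1.87, -1.70 and -1.56.

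Lists that bear on temperature and handling were set beside the cold-inducible genes. Of 17 heat shock genes none passed in either direction, 15 were above and 2 below 0, and the median was 0.09, with Hsph1 highest (29.7 and 40.2 CPM, 0.43) and Bag3 lowest (36.5 and 28.5 CPM, -0.35). Of 13 CLK kinase and SR protein genes, whose splicing follows temperature, none passed and the median was -0.01, from Srsf5 (-0.29) to Srsf1 (0.20). UMIs were counted per gene, so splicing was not measured and these ratios do not bear on it. Summed over the heat shock list, the libraries were furthest apart in cluster 8, at 7149 CPM in Fcmr+/+ and 10158 CPM in Fcmr-/- cells, where Rbm3 had a ratio of -1.02 and Cirbp of -1.66. In cluster 10, where both had their lowest ratios, the sums were 4428 and 5381 CPM. The sum was lower in Fcmr-/- cells in cluster 6, at 4293 and 4051 CPM (Cirbp -1.30, Rbm3 -0.69). It was lower too in cluster 3, at 5785 and 5367 CPM (Cirbp -0.87, Rbm3 -0.24). Heat shock genes (Hspb1, Hspa1a and Hspa1b) are among the leading genes of cluster 8. Its libraries also differed in summed melanoma markers (68.6 and 321 CPM) and erythroid markers (417 and 0.99 CPM). Of 19 immediate early genes 3 were lower, Egr1 (201 and 72.8 CPM, -1.46), Jun (483 and 296 CPM, -0.70) and Klf2 (270 and 178 CPM, -0.60), while Fos had 1240 and 1249 CPM (0.01) and the median was -0.32. Of 13 hypoxia genes Pgk1 alone was higher (0.67), with a median of 0.03.

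Glucocorticoids, whose blood level follows the time of day, induce Per1 and Klf9, and genes that respond to them were therefore counted too. Of 10 such genes 5 were lower and none higher, with a median of -0.48: Mt2 (445 and 121 CPM, log2 ratio -1.87), Fkbp5 (40.4 and 11.7 CPM, -1.70), Klf9 (-1.56), Mt1 (1853 and 1023 CPM, -0.86) and Tsc22d3 (-0.54). Of the 10, the same 5 were lower in every one of the 10 clusters compared. So were 6 of the 19 immediate early genes and 4.38% of all genes. These 5 were already the lowest over all cells, which favors a lower level in each cluster. The lists were chosen with earlier results of these data known, so nothing is read from these counts. The other genes of the list at 5 CPM were nearer to 0: Errfi1 (-0.41), Per1 (-0.22), Ddit4 (-0.14), Sgk1 (-0.10) and Dusp1 (-0.03). The part of the hour of sampling, of handling, of glucocorticoids or of Fcmr in the lower levels of the 10 genes was not tested, since each moves with the library and they cannot be told apart in this design.

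Among genes with at least 20 CPM in either library, Fkbp5, a glucocorticoid-induced chaperone partner, had the pattern most like that of Cirbp. Over 21 groups of at least 50 cells (10 clusters of the Fcmr+/+ and 11 of the Fcmr-/- library), log2 levels of Cirbp had a Pearson's r of 0.94 with Fkbp5, 0.92 with Camta1 and 0.92 with Rbm3. The genes most like Rbm3 were Gm10036 (0.93), Cirbp (0.92) and Gm6133 (0.91). Those most like Per1 were the kinase gene Sik1 (0.86) and the transcription factor gene Klf4 (0.86), followed by Usp3 (0.85). The groups share 2 libraries, so the gap between genotypes enters each r, and genes with a wide gap, as Cirbp and Fkbp5, are favored. Fkbp5 and Camta1 reached 20 CPM in the Fcmr+/+ library alone. For Fkbp5 no r within 1 library was computed, so its likeness to Cirbp was not separated from that gap. Within 1 library, Cirbp and Rbm3 had r of 0.67 over the 10 Fcmr+/+ and 0.64 over the 11 Fcmr-/- clusters.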

How the data were processed

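Per the labels and the study's methods, the authors sorted TMPs, prepared 10x Chromium 3' libraries and deposited raw counts of UMIs for each gene in each cell, which Cell Ranger made from reads mapped to GRCm38. The deposited counts were not normalized or filtered beyond that program's cell calls. Groups follow the labels, with 1 library per genotype.

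Of 14409 cells, 14351 were kept by the study's limits (200 to 7000 genes, at most 30% mitochondrial UMIs). No doublet caller was run; the limit of 7000 genes and, as an alternative, removal of the 5% of cells with the most UMIs stood in for it. Clustering used Seurat 5.3.0 in R 4.3.3 (the study used 2.1.0) with log-normalization to 10000, 1339 variable genes (log mean 0.0125 to 3, dispersion over 0.5), 10 principal components, 30 neighbors and a resolution of 0.8. Sums, exact intervals and ratios came from Python 3.11.15 with numpy 2.4.6, scipy 1.17.1 and pandas 2.3.3, and were tested on simulated data. For equal depth, cells were thinned to 6000 UMIs, which left out 0 Fcmr+/+ and 443 Fcmr-/- cells.

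The members and lists were chosen with earlier results of these data known. The text names the 10 members, at most 3 genes from each end of a list ordered by ratio among those at 5 CPM, Thra, marker genes, up to 5 leading genes per cluster and the 3 genes most like each member with at least 20 CPM. Fcmr, genes overlapping members, Xist, Per3, Cry2, Bhlhe40, Bhlhe41, Dusp1, Fos, and the glucocorticoid genes past the 3 lowest were named beyond that rule, after their values were seen. Lists of S phase genes (11 genes, median -0.11, none past the fold) and G2 and mitosis genes (12 genes, median -0.15, none past the fold) served the ranges. Summed marker CPM in Fcmr+/+ and Fcmr-/- cells were 368 and 569 for monocytes, 7.89 and 12.6 for dendritic cells, 39.9 and 97.4 for neutrophils, 12.4 and 10.4 for B cells, 40.2 and 63.6 for melanoma, 0.639 and 0.554 for fibroblasts, 6.43 and 11.9 for endothelium and 25.7 and 14.0 for erythroid cells. Protein sequences were not analysed here.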

Additional observations from a re-analysis of the deposited data

How the results depend on the processing

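No paired analysis was possible because each genotype has 1 library, and no library could be left out for the same reason. Of the alternatives, 14 recomputed the ratios over all cells. They kept the direction of 9 members, and 13 kept that of Nr1d2, whose log2 ratio was 0.03 with equal shares of clusters of at least 200 cells of each library, a setting chosen after the data were seen. Across these settings Cirbp ran from -1.68 to -1.33, Rbm3 from -0.67 to -0.57, Per2 from -1.23 to -0.46 and Nr1d1 from -0.96 to -0.35.

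Of the members, 5 were lower past the fold, where 2.64% of all genes were. The count was 2 with 5 CPM added before the ratio (1.48% of genes), 3 with CPM averaged over cells (2.72%), 2 at a minimum of 20 CPM (2.27%), 2 with equal cluster shares (1.34%), 1 (Cirbp) at a log2 ratio of 1 (0.287%) and 6 with no filter on low values (1.24%), which adds Per2. Among settings chosen after the data were seen, it was 3 with equal shares of clusters of at least 200 cells (1.34%), 3 with equal shares of clusters scaled within each library (2.32%), and 3 without the 2 clusters with over 90% of cells from one library (1.90%).

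The count of members lower in every cluster, 3 (4.38% of genes), was 6 at a resolution of 0.4 (9.36%), 1 (Cirbp) with 20 principal components (3.18%), 5 with genes centred and scaled within each library (7.83%), 2 with CPM averaged over cells (3.94%) and 2 at a resolution of 1.2 (2.95%). It was 3 without the clock and cold genes (5.59%) and without the interferon genes (5.53%) in the clustering, but with Nr1d1 in place of Cry1. In the clock and cold lists, 9 genes were lower and 2 (Nampt and Ccl2) higher past the fold, where 2.64% and 3.16% of all genes were. At a minimum of 20 CPM it was 4 and 2, with 2.27% and 3.21% of genes. The 9 include the 5 members past the fold, which were chosen on this contrast. Of the 9, Nr1d1 and Ciart reached 5 CPM in the Fcmr+/+ library alone. Nothing is read from this count or from those of members lower in every cluster. Use of all deposited cells was not run for counts over clusters, since cells removed by the limits had no cluster.

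Cluster 3 held 65 Fcmr+/+ cells, in which members under 20 CPM had as few as 1 to 3 UMIs, and intervals cover counting error alone, not the spread between mice.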
